A study of Mus musculus with 8 samples.

Results

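The Cyp2a, Cyp2f and Cyp2g cytochromes are the genes of the deposited count table with the symbols *Cyp2a4*, *Cyp2a5*, *Cyp2a12*, *Cyp2a22*, *Cyp2f2* and *Cyp2g1*, which are 6 of its 24940 genes. All 6 lie on mouse chromosome 7 within 826 kb. They were compared between livers of 4 FXRKO and 4 BCL6LKOFXRKO male mice by sequencing of poly(A) RNA, to ask how combined loss of the transcriptional repressor BCL6 in hepatocytes and of the bile acid receptor FXR differs from loss of FXR alone. All 8 mice were C57BL/6, carried the floxed *Bcl6* allele on both chromosomes and lacked *Fxr* in the whole body. The BCL6LKOFXRKO mice additionally carried Alb-Cre, a recombinase driven by the albumin promoter that is active in hepatocytes. No liver with intact *Fxr* was used, and each comparison is one of *Bcl6* loss on an *Fxr*-deleted background. Presence of Cre, loss of *Bcl6* and any difference in liver health cannot be told apart in this design. The sample titles carry numbers that form runs across the genotypes: BCL6LKOFXRKO liver 1 stands alone, FXRKO liver 1 and BCL6LKOFXRKO liver 2 have adjacent numbers, and the 5 other livers form 1 consecutive run in which the genotypes alternate. What the numbers stand for is not given. The mice of the study were fed or fasted for 4 hours, the state of each liver is not given, and no ages are given in the labels.

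Cytochromes P450 are haem enzymes of the endoplasmic reticulum that oxidise lipophilic molecules with electrons passed from P450 oxidoreductase. *Cyp2a4* and *Cyp2a5* are near-identical mouse genes: *Cyp2a4* encodes a steroid 15-alpha-hydroxylase that is higher in female than in male liver, and *Cyp2a5* encodes the coumarin 7-hydroxylase, which also oxidises nicotine and bilirubin. *Cyp2a12* hydroxylates steroids and secondary bile acids, *Cyp2f2* turns naphthalene into a reactive epoxide in the club cells of the lung and in periportal hepatocytes, and *Cyp2g1* is best known from the olfactory mucosa.

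The sequences just before the start of transcription are printed because they show how closely *Cyp2a4* resembles *Cyp2a5* and *Cyp2a12* resembles *Cyp2a22*. They are the 150 bases before the RefSeq start on the gene's own strand (GRCm38.p6, the mm10 build), in lower case, with capitals at the bases that differ within the *Cyp2a4* and *Cyp2a5* pair and within the *Cyp2a12* and *Cyp2a22* pair. The 5 regions are chr7:26307042-26307191 (plus strand) for *Cyp2a4*, chr7:26835189-26835338 (plus strand) for *Cyp2a5*, chr7:27028940-27029089 (plus strand) for *Cyp2a12*, chr7:26939387-26939536 (minus strand) for *Cyp2a22* and chr7:27119805-27119954 (plus strand) for *Cyp2f2*.
Cyp2a4: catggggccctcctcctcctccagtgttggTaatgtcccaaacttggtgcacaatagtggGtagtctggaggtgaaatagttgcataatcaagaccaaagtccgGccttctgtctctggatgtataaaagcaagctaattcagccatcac
Cyp2a5: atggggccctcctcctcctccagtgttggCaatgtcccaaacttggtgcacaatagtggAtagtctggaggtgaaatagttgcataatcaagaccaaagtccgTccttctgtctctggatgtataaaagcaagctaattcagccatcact
Cyp2a12: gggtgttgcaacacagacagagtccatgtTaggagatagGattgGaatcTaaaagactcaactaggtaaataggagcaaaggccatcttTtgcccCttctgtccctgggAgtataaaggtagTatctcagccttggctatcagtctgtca
Cyp2a22: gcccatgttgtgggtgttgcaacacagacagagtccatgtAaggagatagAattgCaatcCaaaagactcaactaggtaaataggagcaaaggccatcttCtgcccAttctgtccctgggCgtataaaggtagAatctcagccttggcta
Cyp2f2: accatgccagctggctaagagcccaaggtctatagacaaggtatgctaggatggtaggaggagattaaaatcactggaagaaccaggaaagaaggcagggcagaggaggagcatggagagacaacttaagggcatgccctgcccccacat
Within these stretches *Cyp2a4* and *Cyp2a5* differed at 3 bases, which are T31C, G61A and G105T when counted from the first printed base of *Cyp2a4*, with the base of *Cyp2a4* first. Over the 250 bases before the start, 98.4% of 249 aligned bases were identical. *Cyp2a12* and *Cyp2a22* differed at 8 bases, and 91.8% of the 232 aligned bases of their longer upstream stretch were identical. That share leaves out a gap of 7 bases between these 2 genes, at -242 in *Cyp2a12* and so outside the printed bases. The letters TATAAA, the core of a TATA box, were searched on both strands of the 250 bases and were present in all 4 Cyp2a promoters, with their first base at -28 in *Cyp2a4*, -29 in *Cyp2a5*, -39 in *Cyp2a12* and -28 in *Cyp2a22*, and were not in that of *Cyp2f2*. They were in 12.4% of 32841 mouse promoters. The letters TTCNNNGAA, a shared form of STAT5 and BCL6 elements, were in 7.02% of all promoters, CAAAGTCCA, an HNF4A type element, in 0.384%, and TTATGTAA, the D-box bound by *Dbp*, *Hlf* and *Tef*, in 0.819%. None of these 3 was in the 5 windows, which describes these letters in these windows alone.

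The coding sequences of *Cyp2a4* and *Cyp2a5* were 98.5% identical, with 23 of 1482 bases different, and those of *Cyp2a12* and *Cyp2a22* were 97.0% identical, with 45 of 1476 aligned bases different. Between other members the identity was between 62.4% and 76.8%. The authors kept reads that mapped to 1 location, so a 100-base read that falls on a stretch shared exactly by 2 genes was lost. Of all 100-base stretches of the transcript, 11.2% of *Cyp2a4* and 14.4% of *Cyp2a5* had such an exact copy in another gene, which was the other member of the pair or the pseudogene *Cyp2a21-ps*. The share was 6.83% for *Cyp2a12*, 6.36% for *Cyp2a22*, 4.64% for *Cyp2f2* and 1.34% for *Cyp2g1*. Counts of *Cyp2a4*, *Cyp2a5*, *Cyp2a12* and *Cyp2a22* are therefore uncertain where a read was placed on the wrong copy.

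The libraries held between 7586241 and 11839503 counts on genes, and 3 counts, used as the floor, equal 0.253 to 0.395 CPM (counts scaled by library size), for counting error only. From 31.2% to 32.6% of all counts in FXRKO livers and from 41.7% to 45.1% in BCL6LKOFXRKO livers fell on the 50 most counted genes, and CPM were scaled with TMM factors, which are set by the bulk of genes. With total counts alone, the median shift of log2 fold changes over all genes was -0.16, and the share of higher genes among all called genes fell from 58.9% to 37.3%. *Bcl6*, the deleted gene, was at 49.6 ± 19.4 CPM in FXRKO and 7.44 ± 3.24 in BCL6LKOFXRKO livers (SD, n = 4 each), a log2 fold change of -2.72 (SE 0.40, edgeR adjusted p = 0.00123). *Nr1h4*, the gene of FXR, was still counted in all 8 livers and had a log2 fold change of -0.46 (edgeR adjusted p = 0.00497), under the fold threshold used here.

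Of the 6 cytochromes, 5 passed the expression filter. *Cyp2a4* and *Cyp2g1* rose in BCL6LKOFXRKO livers, *Cyp2a12* and *Cyp2f2* fell, and *Cyp2a5* was not called. Calls required both an adjusted p below 0.05 (edgeR quasi-likelihood, Benjamini-Hochberg over 12340 tested genes) and a log2 fold change beyond 0.5 in either direction. By that rule 23.9% of all tested genes were called, 14.1% as higher and 9.84% as lower, beside 2 higher and 2 lower of the 5 tested members. DESeq2 also called 2 members higher and 2 lower, beside 21% of all genes for which it gave an adjusted p. In bulk liver RNA, fewer cells of a type and less RNA per cell cannot be told apart. The edgeR p-values set the difference between genotypes against the spread between livers of a genotype, and they rest on these 8 livers.

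**Figure D1:**
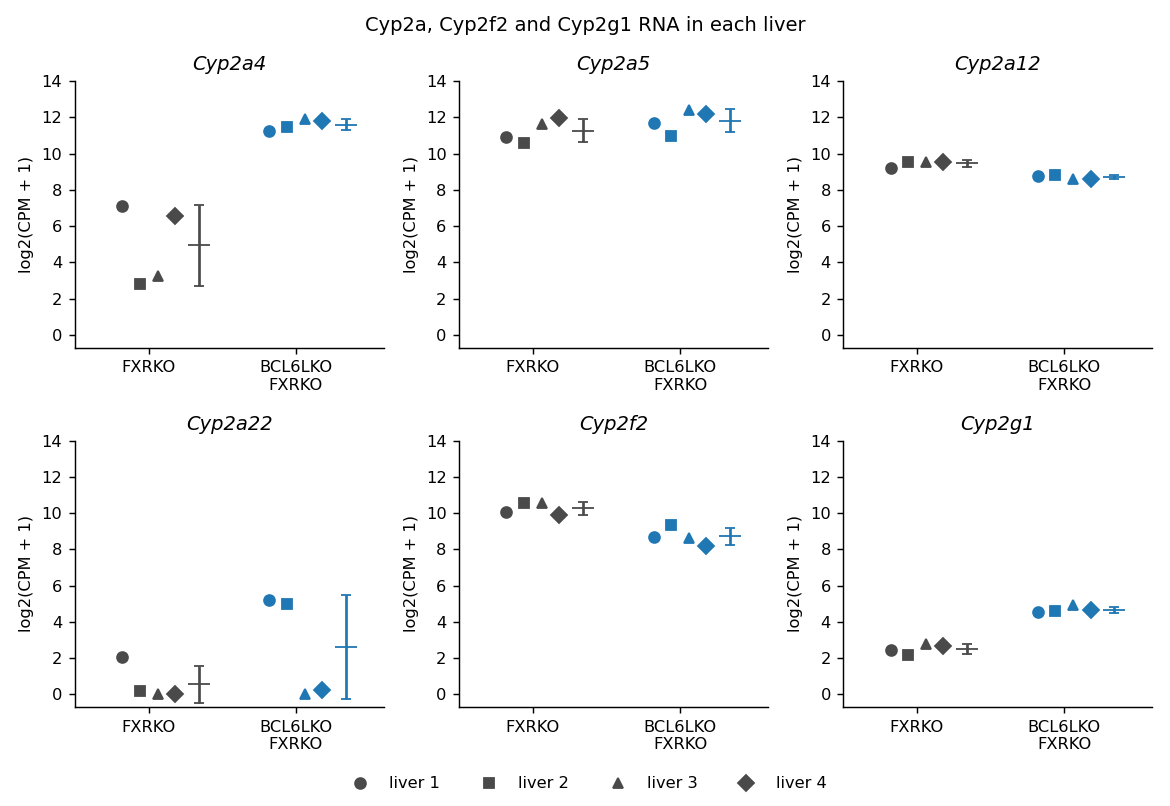
Level of each of the 6 genes in each liver, as log2(CPM + 1), with 1 symbol per liver number and bars for the mean and SD of 4 livers. Liver numbers do not pair the genotypes. The groups stood apart for *Cyp2a4*, *Cyp2a12*, *Cyp2f2* and *Cyp2g1* and overlapped for *Cyp2a5* and *Cyp2a22*.

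*Cyp2a4* (NM_009997, mm10 chr7:26307192-26315088, plus strand, 9 exons) was the member that rose most. It was at 138, 5.87, 8.49 and 94.6 CPM in FXRKO livers 1 to 4 and at 2390, 2833, 3830 and 3587 CPM in BCL6LKOFXRKO livers 1 to 4. FXRKO livers 1 and 4 were well above FXRKO livers 2 and 3, and every BCL6LKOFXRKO liver was above every FXRKO liver. The highest FXRKO liver was 23.5 times the lowest, against 1.60 times among BCL6LKOFXRKO livers. Means were 61.8 ± 65.5 and 3160 ± 666 CPM (SD, n = 4 each), a 51.1-fold difference of means and a log2 fold change of 5.67 (SE 1.17, edgeR adjusted p = 0.0126). The wide spread of the FXRKO livers is carried into this error. With each liver left out in turn the log2 fold change was between 5.29 and 6.43, and the call held. Within the 5 livers of the longest run of title numbers, 3 FXRKO and 2 BCL6LKOFXRKO, it was 6.64 (SE 1.67, edgeR adjusted p = 0.0873), no longer called, with no overlap. With the runs as a term it was 6.02 (edgeR adjusted p = 0.0355).

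*Cyp2a5* (NM_007812, chr7:26835339-26843264, plus strand, 9 exons), which carries nearly the same upstream sequence as *Cyp2a4*, was at 1919, 1549, 3160 and 3947 CPM in FXRKO livers and at 3237, 2029, 5406 and 4681 CPM in BCL6LKOFXRKO livers. The groups overlapped, with livers 3 and 4 the highest in each. Means were 2644 ± 1109 and 3838 ± 1506 CPM (SD, n = 4 each), a log2 fold change of 0.54 (SE 0.37, edgeR adjusted p = 0.307). The 95% interval of the log2 fold change, a normal approximation from the SE, ran from -0.18 to 1.26. No change and a rise of up to 1.26 lay within it, and a rise of the size seen for *Cyp2a4* lay outside it.

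Because reads can be exchanged between the copies, the sum of both genes was compared, and then the share of *Cyp2a4* in it, which does not depend on scaling between livers. Their sum was 2057, 1555, 3169 and 4042 CPM in FXRKO livers and 5627, 4862, 9237 and 8267 CPM in BCL6LKOFXRKO livers. No BCL6LKOFXRKO liver was as low as any FXRKO liver. The sum was 2.59-fold higher in BCL6LKOFXRKO livers, a difference of 1.42 in mean log2(CPM + 1) (exact two-sided permutation test, p = 0.0286, the smallest that 70 arrangements allow, unadjusted). Leaving out any 1 of BCL6LKOFXRKO livers 1, 2, 3 or 4 gave p = 0.0571 in the same exact test, with differences of 1.51, 1.58, 1.27 and 1.32.

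*Cyp2a4* made up 6.72%, 0.378%, 0.268% and 2.34% of the counts of the pair in FXRKO livers 1 to 4. In BCL6LKOFXRKO livers it made up 42.5%, 58.3%, 41.5% and 43.4%. The shares did not overlap, and the group means of 2.43% and 46.4% differed by 44.0 percentage points (exact two-sided permutation test, p = 0.0286). FXRKO liver 2 held 47 counts of *Cyp2a4* beside 12397 of *Cyp2a5*, and FXRKO liver 3 held 79 beside 29405. In those livers, then, no more than the printed share of the pair's counts can be *Cyp2a5* reads placed on *Cyp2a4*.

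**Figure D2:**
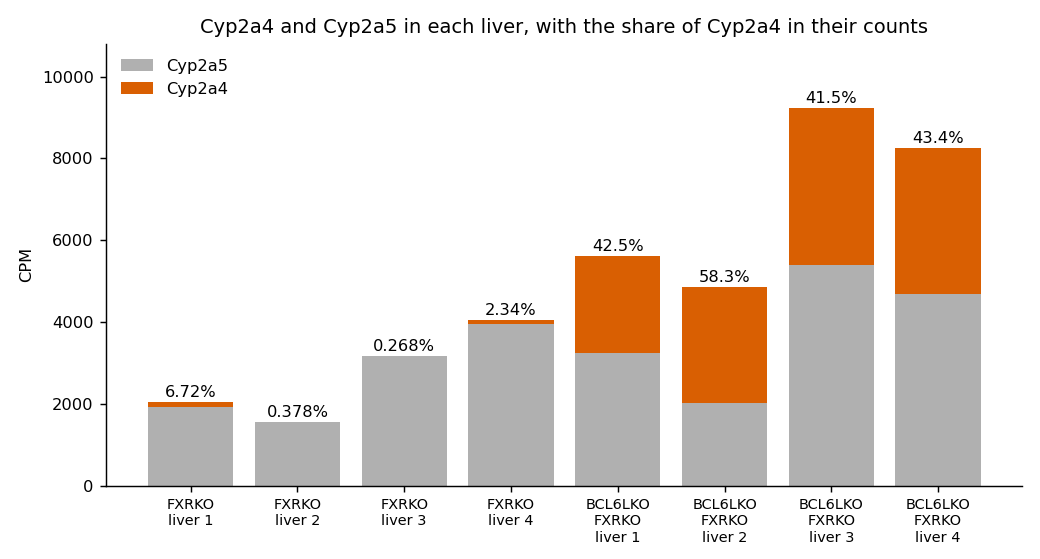
CPM of *Cyp2a5* (grey) and *Cyp2a4* (orange) stacked for each liver, with the percent of *Cyp2a4* in the counts of both printed above each bar. *Cyp2a4* was between 0.268% and 6.72% of the pair in FXRKO livers and between 41.5% and 58.3% in BCL6LKOFXRKO livers.

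*Cyp2a12* (NM_133657, chr7:27029090-27036815, plus strand, 9 exons) fell. It was at 582, 744, 740 and 748 CPM in FXRKO livers and at 433, 452, 387 and 384 CPM in BCL6LKOFXRKO livers. The groups did not overlap, although FXRKO liver 1 was below the other 3. Means were 704 ± 81.1 and 414 ± 33.6 CPM (SD, n = 4 each), a 1.70-fold lower mean and a log2 fold change of -0.77 (SE 0.12, edgeR adjusted p = 0.000513).

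*Cyp2a22* (NM_001101467, chr7:26931631-26939386, minus strand, 9 exons), the near copy of *Cyp2a12*, did not pass the expression filter. Its counts were 31, 1, 0 and 0 in FXRKO livers and 356, 256, 0 and 2 in BCL6LKOFXRKO livers. FXRKO liver 1 and BCL6LKOFXRKO livers 1 and 2 were thus the livers with more than the floor of 3 counts, and the groups overlapped. These 3 livers are those with title numbers outside the run of 5, and the 5 livers of that run had 0 to 2 counts whatever their genotype. The difference in mean log2(CPM + 1) was 2.05 (exact two-sided permutation test, p = 0.257). Without the filter edgeR gave a log2 fold change of 4.24 (adjusted p = 0.206). With the runs of title numbers as a term it gave 3.12 (adjusted p = 0.000566 from edgeR), but that fit drops BCL6LKOFXRKO liver 1, which is alone in its run, and its counts above the floor come from 1 liver of each genotype. BCL6LKOFXRKO liver 3 held 3969 counts of *Cyp2a12* and 0 of *Cyp2a22*, so no read of *Cyp2a12* was counted on *Cyp2a22* there.

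*Cyp2f2* (NM_007817, chr7:27119955-27133660, plus strand, 10 exons) had the largest fall among the members. It was at 1058, 1502, 1507 and 954 CPM in FXRKO livers and at 409, 650, 402 and 289 CPM in BCL6LKOFXRKO livers. FXRKO livers 2 and 3 and BCL6LKOFXRKO liver 2 were high within their groups, and the groups did not overlap. Means were 1255 ± 291 and 437 ± 152 CPM (SD, n = 4 each), 2.87-fold lower, with a log2 fold change of -1.52 (SE 0.24, edgeR adjusted p = 0.000662). A predicted gene on the opposite strand, *Gm15883*, covers 13.5% of the exon bases of *Cyp2f2*, and the stated counting options name no strand, so reads of the 2 genes cannot be told apart there. Likewise *Gm42375* covers 3.51% of the exon bases of *Cyp2a4*.

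*Cyp2g1* (NM_013809, chr7:26808927-26821197, plus strand, 9 exons) was low in all livers and had the smallest adjusted p of the members. It was at 4.47, 3.50, 5.80 and 5.39 CPM in FXRKO livers, from 43, 28, 54 and 57 counts. In BCL6LKOFXRKO livers it was at 22.5, 23.2, 29.4 and 23.9 CPM. The livers of each group lay close together and the groups did not overlap. Means were 4.79 ± 1.03 and 24.7 ± 3.17 CPM (SD, n = 4 each), a 5.16-fold rise and a log2 fold change of 2.36 (SE 0.17, edgeR adjusted p = 6.64e-07). Club cell and olfactory genes were near 0: the secretoglobins *Scgb1a1* and *Scgb3a2* had no count in any liver, and the summed level of the 4 markers of these epithelia was between 0 and 0.189 CPM in FXRKO and between 0.0974 and 0.817 CPM in BCL6LKOFXRKO livers.

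Groups that do not overlap were found for 4 of the 5 tested members and for 31.3% of all tested genes. The 6 members together summed to 3705, 3805, 5422 and 5749 CPM in FXRKO livers and to 6527, 6017, 10054 and 8965 CPM in BCL6LKOFXRKO livers. The groups stood apart, and the mean sum was 1.69-fold higher, a log2 difference of 0.75 (exact two-sided permutation test, p = 0.0286). With total counts alone it was 0.59 (exact permutation p = 0.114), and p was 0.0571 in the same exact test without FXRKO liver 1, 2 or 3 or without BCL6LKOFXRKO liver 3 or 4. The 4 Cyp2a genes alone were 2.18-fold higher in sum (log2 difference 1.14, exact permutation p = 0.0286). That p was 0.0571 in the exact permutation test with total counts alone (log2 difference 0.98). It was also 0.0571 in the same test without FXRKO liver 2 or without any 1 of BCL6LKOFXRKO livers 1 to 4. The p-values with 1 liver left out rest on fewer arrangements and on groups of unequal size. *Cyp2a4* alone went from a mean of 61.8 CPM in FXRKO to 3160 CPM in BCL6LKOFXRKO livers. The mean sum of all members went from 4670 to 7891 CPM and that of the Cyp2a genes from 3410 to 7429 CPM. Most of the rise in both sums was thus *Cyp2a4*.

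Levels of different genes were compared as CPM per kb of transcript. In FXRKO livers *Cyp2a5* was highest, at 1552 ± 651 CPM per kb, followed by *Cyp2f2* at 694 ± 161, *Cyp2a12* at 426 ± 49.1, *Cyp2a4* at 36.3 ± 38.5, *Cyp2g1* at 2.60 ± 0.557 and *Cyp2a22* at 0.378 ± 0.719 (SD, n = 4 each). The lowest value of *Cyp2a4* came close to the highest of *Cyp2g1*. In BCL6LKOFXRKO livers the order was *Cyp2a5* at 2253 ± 884 CPM per kb, *Cyp2a4* at 1854 ± 391, *Cyp2a12* at 250 ± 20.4, *Cyp2f2* at 242 ± 84.0, *Cyp2g1* at 13.4 ± 1.72 and *Cyp2a22* at 7.57 ± 8.74 (SD, n = 4 each). There the ranges of *Cyp2a5* and *Cyp2a4* overlapped, as did those of *Cyp2a12* and *Cyp2f2* and those of *Cyp2g1* and *Cyp2a22*. *Cyp2a4* thus stood below *Cyp2a12* in every FXRKO liver and within the range of *Cyp2a5* in BCL6LKOFXRKO livers.

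**Figure D3:**
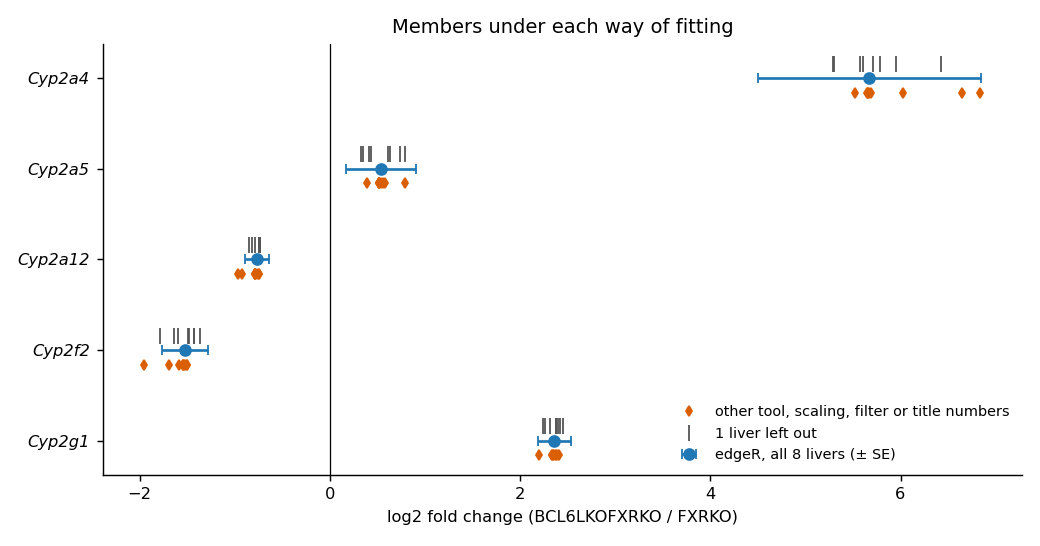
Log2 fold change of the 5 tested members from edgeR with all 8 livers (blue, bar for SE), with 1 liver left out (grey ticks) and with another tool, scaling, filter or use of the title numbers (orange). Every value kept its sign, and *Cyp2a4* had the widest range, from 5.29 to 6.83.

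The members do not fill the chromosome 7 cluster alone. Between 26107192 and 27333660, which is their span with 200 kb on either side, the table held 26 genes, of which 14 were tested and 6 had no count in any liver. Of the 9 tested genes that are not members, *Ltbp4*, which encodes a binding protein of latent TGF-beta, rose by 0.55 on the log2 scale (SE 0.12, edgeR adjusted p = 0.00519). *Cyp2b9*, a neighbouring cytochrome that is also higher in female liver, was counted 384, 9, 3 and 290 times in FXRKO livers and 538, 313, 857 and 756 times in BCL6LKOFXRKO livers. As for *Cyp2a4*, FXRKO livers 1 and 4 were above livers 2 and 3, but here the groups overlapped and the log2 fold change of 1.81 (SE 1.07, edgeR adjusted p = 0.257) was not called. The other 7 tested neighbours were not called. Their log2 fold changes were 0.05 for *Egln2*, 0.04 for *Rab4b*, 0.06 for *Snrpa*, 0.01 for *BC024978*, 0.26 for *Itpkc*, 0.37 for *Coq8b* and 0.96 for *Numbl*.

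**Figure D4:**
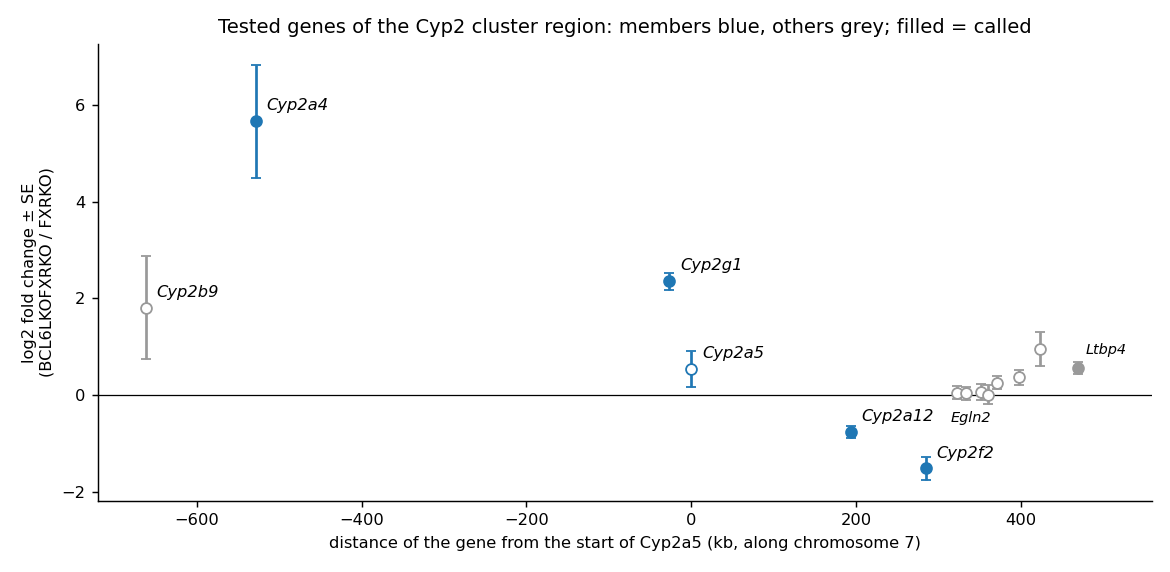
Log2 fold change with SE of the tested genes of the cluster region against distance from the start of *Cyp2a5* in kb. Members are blue, other genes grey, and filled points were called: *Cyp2a4* and *Cyp2g1* above 0, *Cyp2a12* and *Cyp2f2* below it, and *Ltbp4* among the others.

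Genes whose level followed each member most closely over the 8 livers were looked for among 7632 other tested genes with a mean of at least 10 CPM. The correlations of log2(CPM + 1) are descriptions: all points share the 8 libraries, and where a gene differed between genotypes the group difference sets most of r. Closest to *Cyp2a4* were *Cd63* (r = 0.99), *Morc4* (r = 0.98) and *Dtx3* (r = 0.98), and closest to *Cyp2g1* were *Pisd*, *Dnah11* and *Serpina6* (r = 0.99 each). These 6 genes were themselves called higher. Closest to *Cyp2a12* were *Tshz1*, *Clcc1* and *Ttc7b*, and closest to *Cyp2f2* were *AI182371*, *Alg11* and *Serpina1c* (r = 0.99 each), all called lower. *Cyp2a5* was followed most closely by *Cd300lg*, *Rnf145* and *Rbm3* (r = 0.97 each), none of which was called.

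Genes that serve or surround these enzymes were taken from lists by role. Over all 12340 tested genes the median log2 fold change was 0.01, with 1739 called higher and 1214 called lower. Of 13 tested genes for P450 electron transfer and haem synthesis, 1 rose and 2 fell (median log2 fold change -0.09). *Cyb5r3*, a cytochrome b5 reductase, rose by 0.71 on the log2 scale, while *Cpox* and *Fech*, enzymes of the last steps of haem synthesis, fell by 2.09 and 0.70 (edgeR adjusted p = 0.00426, 5.17e-08 and 0.000765).

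Of 24 tested regulators that have been tied to Cyp2a or other liver P450 genes, 2 rose and 5 fell (median log2 fold change -0.24). *Cux2*, a transcription factor of female liver, was at 1.89 ± 2.08 CPM in FXRKO and 87.3 ± 12.3 in BCL6LKOFXRKO livers (SD, n = 4 each; log2 fold change 5.45, edgeR adjusted p = 0.000242), and *Trim24* rose by 1.22 (edgeR adjusted p = 4.29e-05). *Nr0b2*, which encodes the repressor SHP, fell by 3.85 on the log2 scale, the PAR-bZIP factor *Hlf* by 1.50 and the fatty acid receptor gene *Ppara* by 0.99 (edgeR adjusted p = 4.14e-06, 0.00012 and 0.00104). *Rxra* and *Nr1i3*, the gene of the constitutive androstane receptor, also fell.

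Bilirubin is a substrate of the *Cyp2a5* enzyme. Of 11 tested genes of bilirubin handling, 1 rose and 3 fell (median log2 fold change 0.26). The glutathione transferase gene *Gsta1* rose by 2.83 on the log2 scale, and the transporter genes *Slco1a1*, *Slco1b2* and *Abcc3* fell by 7.50, 1.79 and 0.91 (edgeR adjusted p = 0.00119, 7.85e-10, 5.2e-06 and 0.000427). *Slco1a1*, a male-predominant gene, went from 261 ± 45.8 to 1.48 ± 0.683 CPM (SD, n = 4 each). Of 15 tested genes of bile acid synthesis and hydroxylation, the setting of *Cyp2a12*, none rose and 6 fell (median log2 fold change -0.49). *Cyp39a1* and *Cyp7b1*, which hydroxylate oxysterols, fell by 2.14 and 2.95, and *Scp2*, a thiolase of side chain shortening, by 1.45 on the log2 scale (edgeR adjusted p = 4.05e-06, 1.67e-05 and 6.07e-06).

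Of 13 tested genes that clear naphthalene and coumarin products, 5 rose and 1 fell (median log2 fold change 0.16). On the log2 scale the glutathione transferase genes *Gstm3* and *Gstm1* rose by 2.31 and 1.13, the quinone reductase gene *Nqo1* by 1.80, and *Gstt1* fell by 0.78 (edgeR adjusted p = 2.77e-05, 0.000301, 0.000109 and 0.000662).

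*Cyp2f2* is itself a periportal gene, and *Cyp2a5* is best known from pericentral hepatocytes, so other zonal genes are given beside them. Of 14 tested periportal genes, 1 rose and 2 fell (median log2 fold change -0.35): *Aldh1b1* rose by 2.22 on the log2 scale, and *Pck1*, of gluconeogenesis, and *Pigr* fell by 1.61 and 0.69 (edgeR adjusted p = 1.19e-07, 0.00215 and 0.0205). The number called lower was between 1 and 6 with 1 liver left out, lowest without FXRKO liver 2 or BCL6LKOFXRKO liver 1, 3 or 4 and highest without BCL6LKOFXRKO liver 2. It was 4 without FXRKO liver 1. Of 12 tested pericentral genes, 4 rose and 1 fell (median log2 fold change -0.22). On the log2 scale the transporter genes *Slc1a2*, *Slc13a3* and *Rhbg* rose by 1.68, 2.36 and 1.04, and the ethanol-oxidising *Cyp2e1* fell by 1.92 (edgeR adjusted p = 4.37e-05, 0.000134, 0.00185 and 4.45e-06).

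Markers of hepatocytes and of other liver cells are given beside the changes of the cytochromes. In every list with tested markers, some of them were not called. Of 6 hepatocyte markers, *Alb* rose by 1.60 on the log2 scale, from 44554 ± 4422 to 135490 ± 8122 CPM (SD, n = 4 each), and *Serpina1c* and *Ttr* fell by 1.54 and 0.76 (edgeR adjusted p = 1.86e-06, 6.78e-05 and 0.0022). Their summed level was between 53397 and 66363 CPM in FXRKO and between 143330 and 159500 CPM in BCL6LKOFXRKO livers. Most of this sum was *Alb*: without it the other 5 markers summed to between 15160 and 17827 CPM in FXRKO and between 11253 and 15535 CPM in BCL6LKOFXRKO livers, with a small overlap. Among 4 tested cholangiocyte markers *Spp1* and *Krt19* rose, by 1.004 and 1.28. *Sox9*, another of the 4, was at 4.37 ± 2.02 CPM in FXRKO and 2.52 ± 0.697 in BCL6LKOFXRKO livers (SD, n = 4 each; log2 fold change -0.81, edgeR adjusted p = 0.0773), and it was called lower with total counts alone and without FXRKO liver 3. The 6 cholangiocyte markers summed to between 41.5 and 65.9 CPM in FXRKO and between 74.3 and 134 CPM in BCL6LKOFXRKO livers. Most of this sum was *Spp1*, at 43.4 ± 7.51 CPM in FXRKO and 87.2 ± 25.1 in BCL6LKOFXRKO livers (SD, n = 4 each). *Pdgfrb*, *Des* and *Col3a1* rose among 6 stellate cell and fibroblast markers, by 1.06, 0.89 and 0.91. Their summed level was between 76.95 and 122 CPM in FXRKO and between 142 and 253 CPM in BCL6LKOFXRKO livers.

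Of 5 macrophage markers *Lyz2* and *Cd68* rose, by 0.81 and 0.93. The 5 summed to between 244 and 330 CPM in FXRKO and between 332 and 503 CPM in BCL6LKOFXRKO livers. On average the largest part was *Clec4f*, which was not called, at 127 ± 14.7 and 146 ± 54.3 CPM (SD, n = 4 each). *Stab2* rose among 4 endothelial markers, by 0.63, with sums between 78.7 and 104 CPM in FXRKO and between 105 and 135 CPM in BCL6LKOFXRKO livers. The largest part of the endothelial sum was *Stab2* itself, at 46.6 ± 7.11 and 71.9 ± 9.08 CPM (SD, n = 4 each). No lymphocyte marker was tested, and the 5 summed to between 1.61 and 3.01 CPM in FXRKO and between 3.02 and 6.33 CPM in BCL6LKOFXRKO livers. With 1 liver left out, between 1 and 3 cholangiocyte markers and between 1 and 5 stellate cell markers were called higher. The part of these cells in the changes of the cytochromes was not tested.

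**Figure D5:**
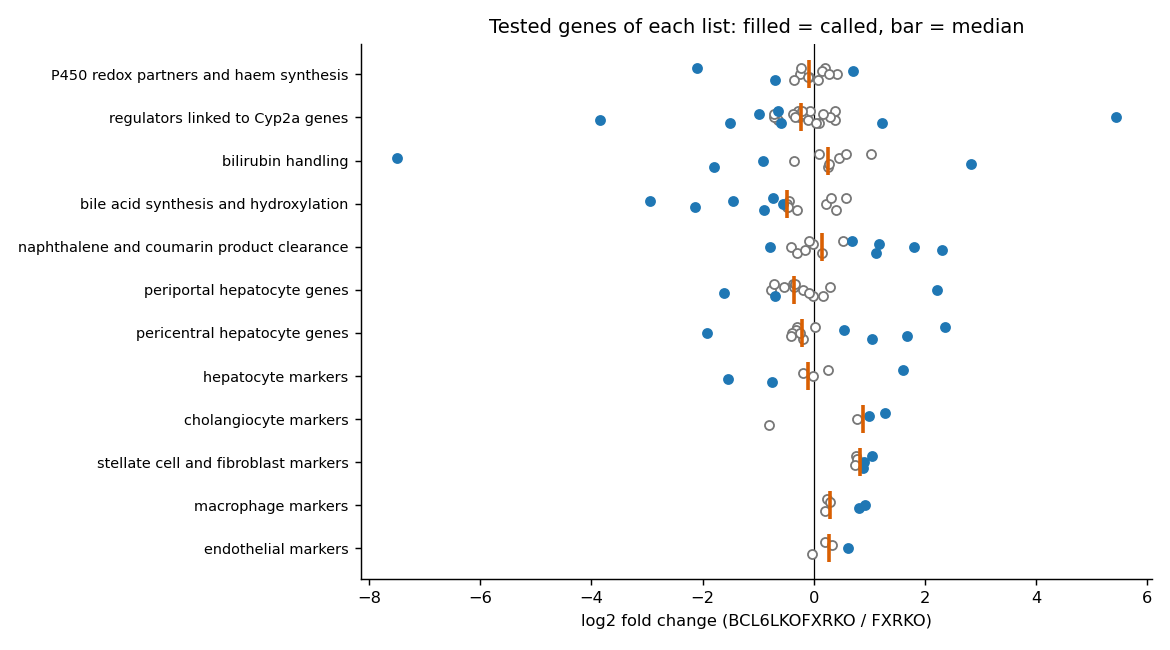
Log2 fold change of each tested gene of 12 lists, filled where called, with the median of each list as an orange bar. The medians of the zonal lists lay at -0.35 and -0.22, and those of cholangiocyte and stellate cell markers at 0.89 and 0.84.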

How the data were processed

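Single-end reads of 100 bp from poly(A) RNA were mapped by the authors with STAR 2.5.2 (mm10, a single location, no more than 4 mismatches). The deposited values are unnormalized counts of exonic reads by HOMER 4.10, with 1 transcript for each gene. The library kit marks strand, but the counting options given in the sources used here name none. The members, gene lists and the rule for named genes were chosen with earlier results of these data known. That rule takes the members, *Bcl6*, *Nr1h4*, every tested gene of the cluster region, from each of 14 lists the 3 genes called higher and the 3 called lower with the lowest adjusted p, and the 3 genes most correlated with each tested member. *Rxra* and *Nr1i3*, and the genes of the last paragraph of the closing section, were named after their values were seen.

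Counts were fitted with edgeR 4.0.16 in R 4.3.3 (filterByExpr, TMM, robust quasi-likelihood, genotype as the only term). No 2 livers of a genotype agreed within sampling noise (chi-square over degrees of freedom from 10.0 to 45.8). Sums and shares were compared with exact two-sided permutation tests over 70 arrangements, with a pseudocount of 1 CPM. With 1 liver left out these tests had fewer arrangements. Alternatives were DESeq2 1.42.0 (the tool of the study), voom in limma 3.58.1, other scalings, filters, fold thresholds and pseudocounts, and each liver left out. Fits with runs of consecutive title numbers, as a term or within the largest run, were added after seeing the data. Promoters are from a RefSeq table (GRCm38.p6, 5 of 6 members matched), and transcripts from GENCODE.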

Additional observations from a re-analysis of the deposited data

Results flagged for a closer look

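Among 118 sets of 4 livers of 1 genotype, 9 had a highest or lowest liver whose gap to the next, divided by the range of the set, was above the 95% critical value for 4 samples. Chance gives about 1 in 20, or 5.9 sets. Among the members, *Cyp2a12* was lowest in FXRKO liver 1, at 582 CPM against 740 to 748 in the other 3 (gap over range 0.953), and *Cyp2a22* was highest in the same liver, at 3.23 CPM against at most 0.125 (0.961). The share of *Cyp2a4* in the counts of *Cyp2a4* and *Cyp2a5* was highest in BCL6LKOFXRKO liver 2, at 58.3% against 41.5% to 43.4% (0.886). *Egln2*, a gene of the cluster region that is not a member, was highest in BCL6LKOFXRKO liver 4, at 106 CPM against 68.1 to 70.8 (0.927). Of the list genes, *Gstm3* (0.845) and *Krt19* (0.858) were highest in FXRKO liver 1, *Aldh1b1* (0.872) was highest and *Pdgfrb* (0.929) lowest in FXRKO liver 3, and *Slc1a2* (0.834) was highest in FXRKO liver 4.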

How the results depend on the processing

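No call of a tested member and no direction changed under another tool, scaling or filter or with any 1 liver left out. Of the members, 1 in place of 2 was called lower with an absolute log2 fold change above 1. Total counts alone gave log2 differences of 0.98 (exact permutation p = 0.0571) for the summed Cyp2a genes and 0.59 (exact permutation p = 0.114) for all members. It also called 10 bile acid genes, 2 clearance genes, 4 periportal genes and 1 cholangiocyte marker lower and 0 endothelial markers higher. DESeq2 called 2 bilirubin genes higher and 4 periportal genes lower. With 1 liver left out, the log2 difference of *Cyp2a4* and *Cyp2a5* in sum was between 1.18 and 1.64, of the Cyp2a genes between 0.975 and 1.33 and of all members between 0.62 and 0.87, with exact permutation p between 0.0286 and 0.0571. The bilirubin genes called higher were between 1 and 3 (3 without BCL6LKOFXRKO liver 2, 2 without FXRKO liver 1 or 3), the periportal genes called lower between 1 and 6, the cholangiocyte markers called higher between 1 and 3 and lower between 0 and 1, and the stellate cell markers called higher between 1 and 5 (1 without FXRKO liver 2 or 3 or BCL6LKOFXRKO liver 4, 5 without BCL6LKOFXRKO liver 3). The cholangiocyte markers called higher numbered 1 without FXRKO liver 2, 3 or 4 or BCL6LKOFXRKO liver 1, 2 or 4, and 1 was called lower without FXRKO liver 3. The cause of these changes was not tested. No paired analysis was possible because the labels give no replicate numbers that the genotypes share, and the liver numbers used here follow the order of the samples. Runs of consecutive title numbers were used after seeing the data. As a term, beside genotype, they left the calls of the 5 tested members as they were, and *Cyp2a22* was called with a log2 fold change of 3.12 (edgeR adjusted p = 0.000566). In the 5 livers of the largest run alone, *Cyp2a4* was at 6.64 (edgeR adjusted p = 0.0873), so 1 in place of 2 members was called higher, while *Cyp2a12*, *Cyp2f2* and *Cyp2g1* kept their calls. The 5 livers with 0 to 2 counts of *Cyp2a22* had totals of 7586241 to 11839503 counts, a range that holds those of the 3 other livers.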

Other observations

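FXRKO livers 3 and 4, where *Cyp2a5* was higher than in FXRKO livers 1 and 2, also differed from them in other genes, which were chosen after their values were seen. *Alas1*, the rate-limiting enzyme of haem synthesis, was at 326 and 316 CPM in FXRKO livers 1 and 2 and at 789 and 1009 CPM in livers 3 and 4. *Cyp7a1*, the rate-limiting enzyme of bile acid synthesis, was at 89.7 and 119 CPM against 412 and 478 CPM. *Nfil3*, a repressor at D-box elements that follows the daily rhythm, was at 40.1 and 34.2 CPM against 12.04 and 13.9 CPM. In BCL6LKOFXRKO livers 1 to 4 part of the pattern was the same. *Alas1* was at 271, 561, 657 and 594 CPM there, and *Nfil3* at 27.9, 19.5, 14.4 and 15.4 CPM. Livers 3 and 4 again had more *Alas1* and less *Nfil3* than livers 1 and 2, with smaller gaps. *Cyp7a1* did not follow this split, at 434, 380, 558 and 262 CPM, lowest in liver 4. The time of day at which each liver was taken is not given in the sources used here, and no test was made.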
